A study of Mus musculus with 2 samples.

Results

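The genes described here are the 7 mouse microRNA genes Mir15a, Mir16-1, Mir15b, Mir16-2, Mir195a, Mir195b and Mir497b, found by name among the 1973 microRNA gene rows of 2 count tables. All 7 had a row, and 6 were detected, meaning at least 10 counts in each library, as were 347 genes in all. The tables come from small RNA sequencing of mouse embryonic lung of the B6NCrl strain at embryonic day 16.5, with male and female embryos pooled and labelled healthy. The 2 libraries are biological replicates 1 and 2 of a single group with no treatment, the second made from 41 embryos, and the labels do not state the number for the first. With 1 group, no condition could be compared, and the comparisons are among the genes, among their loci and between the libraries.

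The miR-15/16 family is a set of related microRNAs that are cut from hairpin precursors by Drosha and Dicer and guide Argonaute proteins to messenger RNAs. The bases after the first one, called the seed, set most of the targets, and the known targets of this family include cyclins, cyclin-dependent kinases, the kinase Chek1 and the survival protein Bcl2. The family is best known for restraining the cell cycle: the human locus of miR-15a and miR-16-1 is often deleted in chronic lymphocytic leukaemia, and in mouse heart miR-195 takes part in the arrest of cardiomyocyte division after birth.

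The genes lie as neighbouring pairs at 3 loci, with Mir195b apart from them. Mir15a (chr14:61632027-61632110, minus strand, mm10) and Mir16-1 (chr14:61631880-61631972, minus strand) lie in the non-coding host gene Dleu2, where Mir15a is in an intron and Mir16-1 overlaps an annotated exon, with 54 bases between the hairpins. Mir15b (chr3:69009772-69009835, plus strand) and Mir16-2 (chr3:69009902-69009996, plus strand) lie in an intron of Smc4, which encodes a condensin subunit, 66 bases apart. Mir195a (chr11:70235042-70235135, plus strand) overlaps no other annotated gene. Mir497b (chr11:70234692-70234816, minus strand) spans the whole of the opposite-strand gene Mir497 (chr11:70234717-70234800, plus strand), which lies 241 bases from Mir195a. Mir195b (chr2:56785811-56785907, plus strand) overlaps no other annotated gene.

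**Figure D1:**
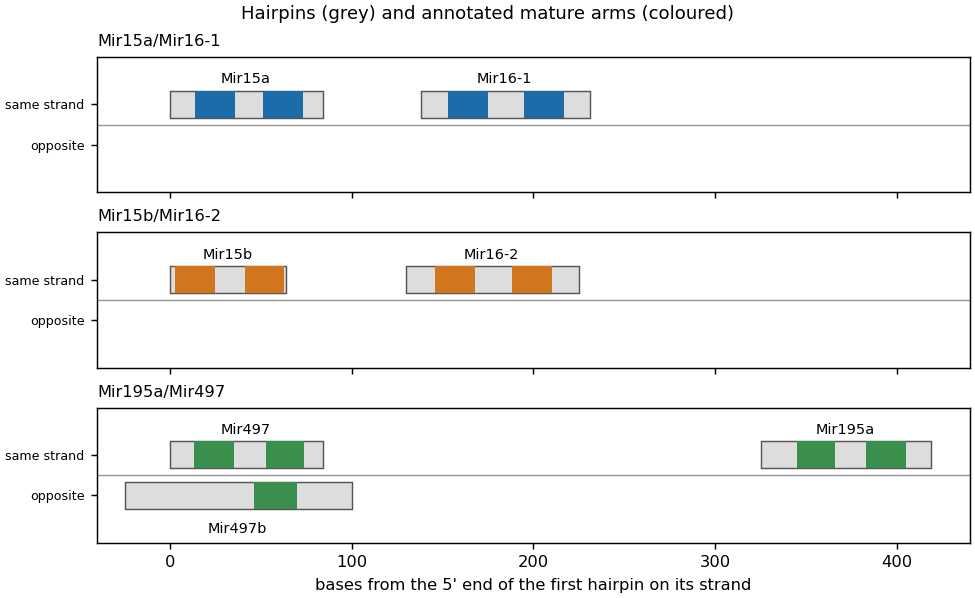
Map of the 3 loci. The x axis is the distance in bases from the 5' end of the first hairpin on its own strand, grey boxes are annotated hairpins and coloured boxes are annotated mature arms. In the Mir195a/Mir497 locus, the hairpin of Mir497b lies on the opposite strand and covers that of Mir497.

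The mature sequences (RefSeq, GRCm38.p6; all mature arms of the 7 genes and Mir497 were found in that table) show what the loci share and what separates them in a count by position. Each is given 5′ to 3′ with the seed, bases 2 to 8, in capitals.
miR-15a-5p: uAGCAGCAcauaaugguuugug
miR-15b-5p: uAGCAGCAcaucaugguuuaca
miR-16-5p: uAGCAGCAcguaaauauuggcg
miR-195a-5p: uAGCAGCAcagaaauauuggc
miR-195b: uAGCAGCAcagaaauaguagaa
miR-497a-5p: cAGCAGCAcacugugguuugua
miR-497b: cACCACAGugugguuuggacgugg

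The seed was the same in 6 of these arms and different in miR-497b, the arm annotated for the gene that gives the deposited row its name. Over the whole arm, seed included, the arms fell into close pairs that cross the loci. Counted from base 1 at the 5′ end, miR-16-5p and miR-195a-5p, which lie at different loci, were identical at 19 of 21 bases and differed by G10A and U11G, with the base of miR-16-5p first. The arms miR-15a-5p and miR-15b-5p were identical at 18 of 22 bases, and miR-15a-5p and miR-16-5p, which lie next to each other at Dleu2, at 16 of 22. The arms miR-195a-5p and miR-195b had 16 bases in common from base 1 and then differed by U17G, G19A and C21A, with the base of miR-195a-5p first.

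The hairpins of Mir16-1 and Mir16-2 are shown because both hold the same miR-16-5p arm. Mature arms are in capitals (GENCODE M21 transcripts on mm10, both 5′ to 3′).
Mir16-1: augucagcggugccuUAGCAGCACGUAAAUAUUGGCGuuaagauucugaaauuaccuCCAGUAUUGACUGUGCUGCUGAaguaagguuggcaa
Mir16-2: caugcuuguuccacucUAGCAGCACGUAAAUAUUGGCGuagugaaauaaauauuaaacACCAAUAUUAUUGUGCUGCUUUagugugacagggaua

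The longest run common to both was 23 bases, the 22 bases of miR-16-5p and the next base. A read that is exactly miR-16-5p therefore matches both loci. The 3′ arms, miR-16-1-3p and miR-16-2-3p, differed at 10 of 22 bases when compared from base 1 without gaps. An alignment that allows gaps was not made. No window of 24 bases was in common, and apart from each other neither hairpin had a window of 18 bases in common with an annotated microRNA hairpin. The tables put reads that match several loci on a line of their own, 3856768 reads in replicate 1 and 2684057 in replicate 2, which is 30.0% and 31.8% of all reads. How many of them are miR-16-5p was not measured, so the levels of Mir16-1 and Mir16-2 are uncertain and may be too low. Among annotated transcripts, each of the other 5′ arms listed above had an exact copy in no other hairpin on its strand. The remaining genome was not searched.

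The second pair of hairpins is shown because the row named Mir497b holds reads of the other strand. Mature arms are in capitals.
Mir497: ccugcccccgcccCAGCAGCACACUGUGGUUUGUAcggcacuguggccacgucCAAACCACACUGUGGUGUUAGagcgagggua
Mir497b: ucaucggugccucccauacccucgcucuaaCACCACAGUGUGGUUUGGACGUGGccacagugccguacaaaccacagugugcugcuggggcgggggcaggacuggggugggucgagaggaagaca

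The reverse complement of Mir497b contains all 84 bases of Mir497. Of the Mir497b counts, 13045 of 13046 in replicate 1 and 9488 of 9488 in replicate 2 lay on the strand opposite to Mir497b, which is the strand of Mir497. That is 99.99% (95% interval 99.96 to 100%) in replicate 1 and 100% (99.96 to 100%) in replicate 2. Mir497 itself has no row in the tables, whose annotation is the earlier GENCODE release M4. The values below are those of the row as deposited, with both strands together, and are called the Mir497 counts of the Mir497b row. For the 5 other detected genes, 0 counts were on the opposite strand in either library. Across the table, 10 of 347 detected genes (2.88%) had more than 50% of their counts on the opposite strand, and in each of these another microRNA gene is annotated there. By the number of opposite-strand counts, Mir497b was 6th among detected genes.

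Depth was 6376715 gene counts in replicate 1 and 4123748 in replicate 2. Levels are given as CPM, which are counts after scaling the gene counts of a library to 1e+06, and intervals are exact 95% intervals that cover counting error only. A gene with 0 counts could still be present at up to 0.470 CPM in replicate 1 and 0.727 CPM in replicate 2, the level of 3 counts. As a check of the tissue label, the epithelial markers (5 of 5 detected) summed to 32596 and 33935 CPM in replicates 1 and 2, endothelial Mir126a (1 of 1) to 87277 and 79120, mesenchymal markers (5 of 5) to 75785 and 78212, and multiciliated markers (3 of 3) to 15414 and 19573. Most of the mesenchymal sum was Mir143 and most of the multiciliated sum Mir449a. As log2 of the mean CPM, Mir143 stood at 16.12 and Mir199a-1 of the same list at 2.50. Mir449a stood at 14.01 and Mir34b of its list at 5.30. A list detected in full thus does not mean that its genes had like levels. Hepatocyte Mir122 stood at 111 and 601 CPM, red cell Mir451a at 747 and 408, skeletal muscle markers (1 of 3 detected) at 294 and 643 and heart markers (2 of 2) at 761 and 525. Of the 2 neural genes listed, 1 had a row, and it was at 0 in both libraries. Reads that match several loci are not in the gene rows, and copies of the marker arms were not searched. A marker row at 0 therefore does not show that the microRNA was absent, and is no check of the label.

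Together the 7 genes held 75941 counts in replicate 1 and 50131 in replicate 2. Their summed level was 11909 and 12157 CPM, or 12033 ± 175 CPM (SD, n = 2), which is 1.20% ± 0.0175 of all gene counts. The sum thus differed little between libraries, while its parts differed more. In a bulk tissue, fewer cells of a type and less RNA per cell cannot be told apart.

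At the Dleu2 locus, Mir15a was the highest of the 7 genes. It had 29608 counts (4643 CPM) in replicate 1 and 16123 counts (3910 CPM) in replicate 2, a mean of 4276 ± 519 CPM (SD, n = 2), and stood 42nd of all genes by its mean. Its neighbour Mir16-1 had 11861 counts (1860 CPM) and 8207 counts (1990 CPM), a mean of 1925 ± 92.02 CPM. In both libraries the row of Mir15a was above that of Mir16-1, and their ratio was 2.50 (2.44 to 2.55) in replicate 1 and 1.96 (1.91 to 2.02) in replicate 2. The Mir16-1 row leaves out reads that match both miR-16 loci, so this is a ratio of rows and may be too high.

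At the Smc4 locus both rows were lower than those of their paralogues at Dleu2. Mir15b had 6865 counts (1077 CPM) and 5256 counts (1275 CPM), a mean of 1176 ± 140 CPM. Mir16-2 had 2600 counts (408 CPM) and 1558 counts (378 CPM), a mean of 393 ± 21.2 CPM, the lowest of the 6 detected genes. As at Dleu2, the row of the miR-15 gene was above that of the miR-16 gene. The ratio of Mir15b to Mir16-2 was 2.64 (2.52 to 2.76) in replicate 1 and 3.37 (3.19 to 3.57) in replicate 2. Between the loci, Mir15a was 4.31-fold (4.20 to 4.43) above Mir15b in replicate 1 and 3.07-fold (2.97 to 3.17) in replicate 2. The row of Mir16-1 was 4.56-fold (4.37 to 4.76) above that of Mir16-2 in replicate 1 and 5.27-fold (4.99 to 5.56) in replicate 2. Both rows leave out reads that match both loci, so this fold is not that of all miR-16-5p made at each locus. The ratio of Mir15b to Mir16-2 is likewise one of rows and may be too high.

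At the chromosome 11 locus the members were close to each other. Mir195a had 11961 counts (1876 CPM) and 9498 counts (2303 CPM), a mean of 2089 ± 302 CPM. The Mir497 counts of the Mir497b row were 13046 (2046 CPM) and 9488 (2301 CPM), a mean of 2173 ± 180 CPM. The ratio of Mir195a to the Mir497b row was 0.917 (0.894 to 0.940) in replicate 1 and 1.00 (0.973 to 1.03) in replicate 2, so in replicate 2 the genes could not be told apart within counting error.

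Mir195b, the lone gene on chromosome 2, had 0 counts in replicate 1 and 1 count in replicate 2. Both are under the limit of 3 counts, so no fold was computed. Its arm ends differently from miR-195a-5p, as shown above, and no window of 18 bases of its hairpin occurred in another annotated hairpin.

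By the mean of the rows, the order of levels was Mir15a, the Mir497b row, Mir195a, Mir16-1, Mir15b, Mir16-2 and Mir195b. The rows of Mir16-1 and Mir16-2 leave out reads that match both miR-16 loci. Their places in this order may therefore be too low, to an extent that was not measured. The ranges of the Mir497b row and Mir195a over the 2 libraries overlapped, as did those of Mir195a and Mir16-1. Such ranges set aside that each library holds both genes, so these neighbours were also compared within a library. The ratio of Mir195a to the Mir497b row was 0.917 in replicate 1 and 1.00 in replicate 2. The Mir497b row was above Mir16-1 in both libraries. So was Mir195a, at 1876 against 1860 CPM in replicate 1, where the counting intervals overlapped, and 2303 against 1990 CPM in replicate 2. Mir195a was 1.74-fold (1.69 to 1.80) above Mir15b in replicate 1 and 1.81-fold (1.75 to 1.87) in replicate 2. Mir15a stood above these 3 genes in both libraries, and Mir15b, Mir16-2 and Mir195b stood below them in that order.

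**Figure D2:**
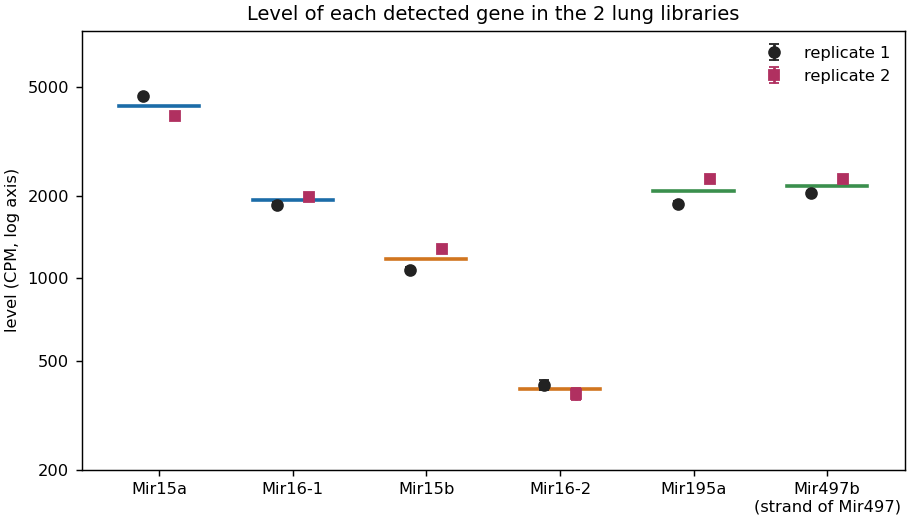
Level of each of the 6 detected genes. The y axis is CPM on a log scale, circles are replicate 1 and squares replicate 2 with 95% counting intervals (often smaller than the symbol), and coloured bars are the means. Mir15a lies highest at 4643 and 3910 CPM and Mir16-2 lowest at 408 and 378 CPM. The rows of Mir16-1 and Mir16-2 leave out reads that match both miR-16 loci and may be too low.

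Summed by locus, Mir15a with Mir16-1 was highest, Mir195a with the Mir497b row next and Mir15b with Mir16-2 lowest, in both libraries. The Dleu2 and Smc4 sums leave out reads that match both miR-16 loci, to an extent that was not measured. The hairpins of Mir195a and Mir497 had no window of 18 bases in common with another annotated hairpin. Sums, shares and ratios of the loci are thus those of the rows, and their intervals do not cover this loss. The Dleu2 locus held 6503 and 5900 CPM in replicates 1 and 2 (mean 6202 ± 427, SD, n = 2). The chromosome 11 locus held 3922 and 4604 CPM (4263 ± 483), and the Smc4 locus 1484 and 1652 CPM (1568 ± 119).

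As shares of the 7 genes' counts, the Dleu2 locus held 54.6% (95% Clopper-Pearson interval 54.3 to 55.0%) in replicate 1 and 48.5% (48.1 to 48.97%) in replicate 2. The chromosome 11 locus held 32.9% (32.6 to 33.3%) and 37.9% (37.4 to 38.3%), and the Smc4 locus 12.5% (12.2 to 12.7%) and 13.6% (13.3 to 13.9%). The share of the Dleu2 locus was larger in replicate 1 and that of both other loci smaller. On the sense-strand column alone, which drops the Mir497 counts, the chromosome 11 locus held 21.2% and stayed second to the Dleu2 locus.

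The ratio of the loci needs no scaling, since both sums come from the same library. The Dleu2 locus was 1.66-fold (1.63 to 1.68) above the chromosome 11 locus in replicate 1 and 1.28-fold (1.26 to 1.31) in replicate 2. It was 4.38-fold (4.28 to 4.48) above the Smc4 locus in replicate 1 and 3.57-fold (3.48 to 3.67) in replicate 2. The chromosome 11 locus was 2.64-fold (2.58 to 2.71) above the Smc4 locus in replicate 1 and 2.79-fold (2.71 to 2.86) in replicate 2. The ratios to the Dleu2 locus thus moved further between the libraries than the ratio of the other two. On the sense-strand column, which drops the Mir497 counts, the Dleu2 locus was 3.47-fold above the chromosome 11 locus in replicate 1 and 2.56-fold in replicate 2. On that column the chromosome 11 locus was 1.26-fold above the Smc4 locus in replicate 1 and 1.39-fold in replicate 2.

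**Figure D3:**
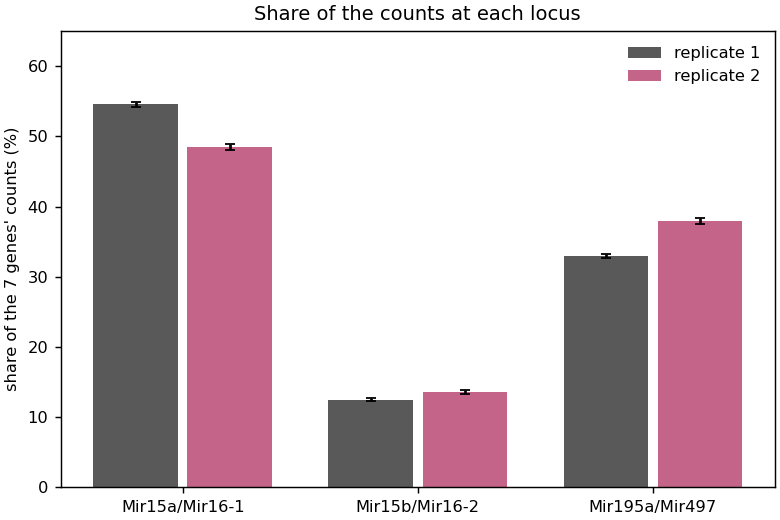
Share of the 7 genes' counts at each locus. The y axis is the percentage, dark bars are replicate 1 and pink bars replicate 2, with 95% Clopper-Pearson intervals. The Dleu2 locus (Mir15a/Mir16-1) holds 54.6% and 48.5%, Mir15b/Mir16-2 holds 12.5% and 13.6%, and Mir195a/Mir497 holds 32.9% and 37.9%.

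Between the libraries, the members of the Dleu2 and Smc4 loci moved in opposite directions within each pair, and those of chromosome 11 in the same direction. A two-sided exact binomial test, run per gene against the library totals and adjusted by Benjamini-Hochberg over all 347 detected genes, called 2 of the 6 detected members higher in replicate 1 and 4 lower. Of all detected genes, 16.4% were called higher in replicate 1 and 30.5% lower, 47% in all. The members' median log2 ratio was -0.13, beside -0.05 over all detected genes. The test compares these libraries and not conditions, and weighs a difference against counting error alone, so that abundant genes pass with small differences.

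Mir15a was 1.19-fold (1.16 to 1.21) higher in replicate 1 (exact binomial test, adjusted p = 6.82e-69), and Mir16-2 was 1.08-fold (1.01 to 1.15) higher (exact binomial test, adjusted p = 0.0379). Mir195a was lower in replicate 1, at 0.814 of its level in replicate 2 (0.793 to 0.837; exact binomial test, adjusted p = 7.13e-49). Mir15b was lower at 0.845 (0.815 to 0.876; exact binomial test, adjusted p = 3.42e-19), the Mir497b row at 0.889 (0.866 to 0.913; exact binomial test, adjusted p = 2.8e-17) and Mir16-1 at 0.935 (0.909 to 0.961; exact binomial test, adjusted p = 1.06e-05). With edgeR's TMM factors the members' calls were again 2 higher and 4 lower, beside 45.5% of all detected genes called. With DESeq2's size factors they were 2 higher and 3 lower, beside 44.1%, and all 6 directions held under both scalings. The call of Mir16-1 was the one lost with DESeq2's size factors (exact binomial test, adjusted p = 0.0602), and that of Mir16-2 when genes with 1 count in each library were kept in the adjustment (exact binomial test, adjusted p = 0.0586).

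**Figure D4:**
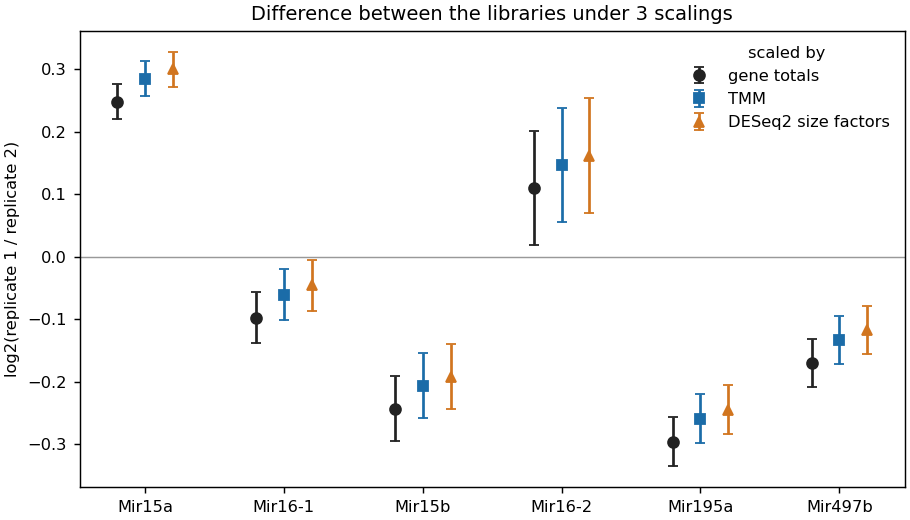
Difference between the libraries for the 6 detected genes. The y axis is the log2 ratio of replicate 1 over replicate 2 with 95% counting intervals, and circles, squares and triangles are the values scaled by gene totals, TMM factors and DESeq2 size factors. Mir15a and Mir16-2 lie above 0 and the other 4 genes below 0 under all 3 scalings.

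Differences of this size were found in other genes too. Among the 194 detected genes with a mean of at least 100 CPM, the median absolute log2 ratio was 0.12. Of these genes, 12.9% lay at least as far from 0 as Mir195a, 18.04% as far as Mir15a and 20.1% as far as Mir15b. For the Mir497b row the share was 33.5%, for Mir16-2 53.6% and for Mir16-1 60.8%.

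**Figure D5:**
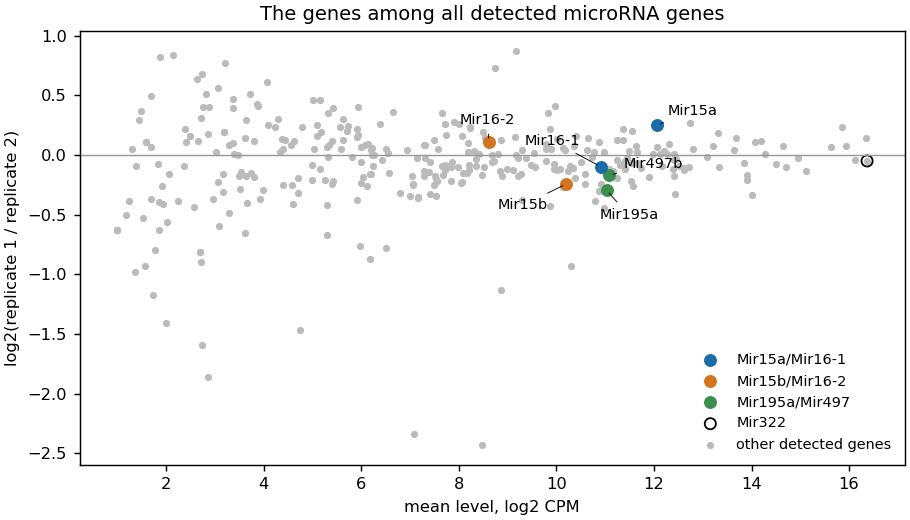
The 6 genes among all 347 detected microRNA genes. The x axis is the mean level as log2 CPM and the y axis the log2 ratio of replicate 1 over replicate 2. Coloured points are the genes by locus, the open circle is Mir322 and grey points are the other genes. The 6 genes lie within 0.30 of 0 on the log2 scale.

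Within a pair, the shift between libraries was larger at Dleu2 and Smc4 than for most neighbouring genes. The log2 ratio of Mir15a exceeded that of Mir16-1 by 0.35, and that of Mir15b was below that of Mir16-2 by the same amount (-0.35). For Mir195a and the Mir497b row the difference was -0.13. The 67 neighbouring pairs that share a strand, lie within 10 kb and reach 100 CPM or more include the Dleu2 and Smc4 pairs, and their median absolute difference was 0.12. A larger difference was found in 4 of them than at Dleu2, in 3 than at Smc4 and in 30 than at chromosome 11. In mean level the members of a pair were 2.22-fold apart at Dleu2, 2.99-fold at Smc4 and 1.04-fold at chromosome 11, beside a median of 2.89-fold over the 67 pairs. Reads that match several loci, as those of the whole miR-16-5p arm do, are on a separate line of the tables, and their part in these differences was not tested.

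Counts assigned to a miR-16 locus were few beside all reads, of any origin, that matched several loci. The Mir16-1 and Mir16-2 rows held 14461 counts together in replicate 1 and 9765 in replicate 2, of which Mir16-1 had 82.0% and 84.0%. The line of reads matching several loci was 267-fold and 275-fold as large. In the same libraries Mir15a and Mir15b held 36473 and 21379 counts. The ratios of miR-15 to miR-16 and of Mir16-1 to Mir16-2 given above are thus ratios of rows and not of the mature microRNAs.

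Among the gene rows, the wider seed family was dominated by Mir322, an X-linked gene that is the mouse counterpart of human miR-424. In the RefSeq table, 11 mouse genes have a mature arm with the same bases 2 to 8 as miR-15a-5p, and 10 of them have a row. Besides the 6 members and Mir497, these were Mir322, Mir6342, Mir6353 and Mir6419. The last 3 had 0 counts in both libraries. Mir322 had 530625 counts (83213 CPM) in replicate 1 and 355219 counts (86140 CPM) in replicate 2. Its arm and that of its neighbour Mir503 are shown for comparison, again with bases 2 to 8 in capitals.
miR-322-5p: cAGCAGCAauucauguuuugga
miR-503-5p: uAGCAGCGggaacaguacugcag

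Over the whole arm, seed included, miR-322-5p was identical to miR-15b-5p at 16 of 22 bases, and to miR-497a-5p and miR-15a-5p at 15 of 22 each. The seed of miR-503-5p differs at its last base, A8G with the base of miR-15a-5p first. The same-seed rows and the Mir497b row held 9.51% of gene counts in replicate 1 and 9.83% in replicate 2. Within this sum the 7 genes made up 12.5% and 12.4%, and Mir322 87.5% and 87.6%. Mir322 alone was 6.99-fold the sum of the 7 genes in replicate 1 and 7.09-fold in replicate 2. These shares and folds leave out reads that match several loci, as those of the whole miR-16-5p arm do. An exact copy of miR-322-5p was found in 1 annotated hairpin only. How much the reads left out would add to the 7 genes was not measured. Mir503 was at 2041 and 2011 CPM, in the range of Mir16-1 and Mir195a, and was not called different between the libraries (exact binomial test, adjusted p = 0.406).

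Beside other families that act on the cell cycle, the 7 genes at 12033 CPM lay below the miR-17-92 cluster, whose 6 genes summed to 31386 ± 2234 CPM. They also lay below the let-7 family, whose 10 genes with a row of 12 listed summed to 163010 ± 10107 CPM (SD, n = 2). Mirlet7e and Mirlet7f-1 have no row. Counts on their strands, 52099 in the row Gm25927 and 2554 in Gm24111 over both libraries, are not in the let-7 sum, whereas the Mir497b row is in that of the 7 genes. Reads that match several loci are in none of the sums. The miR-17-92 and let-7 sums were both higher in replicate 1, at 32966 CPM against 29806 CPM in replicate 2 and at 170156 CPM against 155863 CPM. For the miR-17-92 cluster 5 of 6 genes were called higher in replicate 1 and 1 lower, and for let-7 6 of 10 higher and 1 lower, by the same exact test against counting error alone, which called 16.4% of all detected genes higher and 30.5% lower.

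Nearest in level to Mir15a over the 2 libraries, by the distance of log2(CPM + 1), were Mirlet7f-2 (4373 and 4167 CPM, distance 0.13) and Mir379 (4473 and 4447 CPM, distance 0.19). Nearest to Mir15b were Mir142b (1149 and 1258 CPM, distance 0.10) and Mir1193 (1017 and 1222 CPM, distance 0.10). Nearest to the Mir497b row were Mir361 (2062 and 2234 CPM, distance 0.04) and Mir455 (1942 and 2369 CPM, distance 0.09). With only 2 libraries, this likeness is one of level.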

How the data were processed

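Small RNA under 30 bases was sequenced, per the labels. The authors deposited counts of reads per microRNA gene, not normalized, with assembly mm10 and GENCODE M4, per the file headers. Aligner and counting program: not given in the sources used here. Per the file contents, each table has 3 count columns and 4 summary lines. In every gene row the first column is the sum of the sense and opposite-strand columns, and it was used throughout. Totals and tests leave the summary lines out: reads counted to genes were 49.6% of the replicate 1 table and 48.8% of the replicate 2 table.

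CPM was computed over gene rows. Names and coordinates are from GENCODE M21, which matched 1894 of 1973 identifiers. Replicate 1 was set against replicate 2 by an exact binomial test (two-sided, conditional on the gene's sum) over 347 genes with at least 10 counts in each, adjusted by Benjamini-Hochberg at 0.05. The test was also run on simulated counts that varied by counting error only. That check cannot show how the test behaves where libraries differ by more than counting error. With 1 group no edgeR model of conditions could be fitted. Scaling by edgeR 4.0.16 TMM factors and DESeq2 1.42.0 size factors, other count minimums, the sense-strand column, other totals and each replicate left out were the alternatives. Python 3.11.15, scipy 1.17.1, pandas 2.3.3 and R 4.3.3 were used. P-values measure these libraries only. Genes were named as the 7 members, genes of the same seed with Mir503, hosts, and the 2 nearest in level to the top gene of each locus. The members and lists were chosen with earlier results of these data known.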

Additional observations from a re-analysis of the deposited data

How the results depend on the processing

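The number of detected genes called different between the libraries was 163, and 158 with TMM factors and 153 with DESeq2's size factors; other count minimums and the sense-strand column kept it within 1.5 times. On the sense-strand column, which drops the Mir497 counts, the Dleu2, Smc4 and chromosome 11 loci held 62.9%, 15.9% and 21.2% of the members' counts. With only the most abundant gene of each locus the shares were 56.0%, 15.4% and 28.5%. The order of the loci was the same under these alternatives, none of which adds the reads that match several loci. Giving opposite-strand counts to their locus leaves the shares as they are by construction. Leaving out a replicate gave 48.5 to 54.6%, 12.5 to 13.6% and 32.9 to 37.9%. The summed level, 12033 CPM, was 10131 on the sense-strand column, 5916 when scaled to all reads of the table and 13146 without Mir322 in the total, and 11909 to 12157 with a replicate left out. Between the libraries, all 6 detected members kept direction and call with TMM factors, and with DESeq2's size factors all 6 kept direction and 1, Mir16-1, lost its call. On the sense-strand column the mean ratio of the Dleu2 to the chromosome 11 locus was 3.01, against 1.47 with both strands, and that of chromosome 11 to Smc4 was 1.33, against 2.71. No paired analysis was possible because the samples form a single group. Depth limits Mir195b, whose counts lie under the limit of 3. Reads matching several loci limit Mir16-1 and Mir16-2, and with them the sums and shares of the loci, to an extent that was not measured.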

Other observations

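The row of Mir497b was not alone in holding reads of an opposite-strand gene. The other 9 detected rows with more than 50% of counts on the opposite strand, summed over both libraries, were Gm25301 (56560 opposite-strand counts, where Mir378a is annotated), Gm24321 (53839, Mir409), Gm25927 (52099, Mirlet7e), Gm25252 (25535, Mir376a) and Gm24083 (25475, Mir191). The remaining ones were Mir299b (21374, Mir299a), Mir142b (12515, Mir142), Gm25750 (6976, Mir380) and Gm24111 (2554, Mirlet7f-1). Mir497b had 22533 such counts, which is 7.74% of all opposite-strand counts in replicate 1 and 8.48% in replicate 2. Mir142b, named above as near Mir15b in level, is such a row.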
